A study of Homo sapiens with 46 samples.

Results

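The 6 protein-coding genes described here are *MAP2*, *SNAP25*, *COL14A1*, *SF3B3*, *EVC* and *PSD3*, of 58735 genes listed in the deposited table. They were chosen by their measured read counts in these libraries, as genes with a higher level after silencing of the mitochondrial *ND5* mRNA than after the other treatments or in the control. The difference of the ND5 libraries from the control and from the other treatments is therefore given as a description, with no test. All 6 genes had enough reads to enter the fit, which covered 20272 genes.

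The data were RNA-seq libraries of HEK293T cells, an established human embryonic kidney line that the labels call epithelial-like, of wild-type (WT) genotype. Each treatment delivered a chimera, in which a morpholino (a synthetic antisense oligomer) is coupled to pCox4, a yeast presequence that carries it into mitochondria, at 2 µM for 48 hours with the carrier EndoPorter. The 11 treatments targeted *ATP6*, *ATP8*, *COX1*, *COX2*, *COX3*, *CYTB*, *ND1*, *ND2*, *ND3*, *ND4L* or *ND5* mRNA, and the control, per the study's methods, received pCox4 in the click reaction buffer, with no morpholino. There were 4 libraries of each condition, except for 3 each of COX2 and ND2, which gives 46 libraries of 12 conditions. The control thus shared the presequence with all treatments but contained no untargeted morpholino, and *ND5* was targeted with 1 chimera, so that for this treatment an effect of silencing and an effect of the particular oligomer cannot be told apart from these libraries. Replicates 1 and 2 formed batch 1 and replicates 3 and 4 formed batch 2, done on different days with different reagent batches. The study's methods call the replicates biological, while the labels do not mark them as separate cultures, and the p-values measure the spread between these libraries.

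MAP2 stabilises microtubules, mainly in the dendrites of neurons, and SNAP25 is a SNARE protein of the presynaptic membrane that drives fusion of vesicles together with syntaxin and VAMP. Both are textbook neuronal genes, and transcripts of many neuronal genes are held low in other cells by the repressor REST. The other genes have unrelated roles: collagen type XIV is a fibril-associated collagen of the extracellular matrix, SF3B3 is a subunit of the SF3b complex of the U2 snRNP that recognises the branch point in splicing, EVC acts at the base of the primary cilium in Hedgehog signalling, and PSD3 is an exchange factor for the GTPase ARF6. The ND5 protein is a subunit of the proton-pumping arm of respiratory complex I.

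The site on the *ND5* mRNA to which the ND5 morpholino was directed spans bases 3 to 25 of the transcript (23 bases, chrM:12339-12361, plus strand, GRCh38, within the coding sequence of *MT-ND5*). It is shown because it is what sets this treatment apart in sequence from the other 10. Below it, capitals mark the longest run of the site, of at least 8 bases, that also occurs base for base in an annotated transcript of a gene described here (GENCODE 29).
MT-ND5 mRNA: aaccatgcacactactataacca
MAP2: aaccaTGCACACTactataacca
SNAP25: aaccATGCACACtactataacca
SF3B3: aaccATGCACACTACtataacca
EVC: aaCCATGCACactactataacca
The runs in *MAP2*, *SNAP25*, *EVC* and *COL14A1* were 8 bases long, and a run of 8 or more occurred in 41.2% of the 20262 genes searched. Among genes whose longest transcript was within a factor of 1.5 in length, the share was 77.1%, 33.8%, 65.1% and 65.4% in the same order. The run in *PSD3* was 9 bases, as long or longer in 14.2% of all genes and in 37.7% of those of like length. The 11-base run of *SF3B3* (bases 7 to 17 of the *ND5* mRNA) lay in a transcript of the retained-intron class. A run this long was found in 142 genes, or 0.701% of all, and in 1.68% of the 2324 genes whose longest transcript was within a factor of 1.5 in length. These matches describe letters in the annotation, and binding of the chimera to the transcripts was not measured.

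The *ND5* mRNA itself, as the targeted transcript, had levels of 2055, 2327, 2533 and 1994 CPM (reads of the gene scaled to the library's size) in ND5 replicates 1 to 4 and of 2301, 2566, 2940 and 2336 CPM in the control replicates. The groups overlapped, and the log2 difference from the control was -0.19 (edgeR quasi-likelihood test, adjusted p = 0.458). From the mean of the other 10 treatments it was -0.24 (adjusted p = 0.0489). Its level therefore does not by itself identify the ND5 libraries. Total counts per library ranged from 18876395 to 100698084, and only COX3 replicate 4 exceeded 28121898.

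Markers of other cell types gave the following levels. The 6 epithelial markers, all with a mean of at least 1 CPM, summed to 743 to 998 CPM in the ND5 libraries and 740 to 960 CPM in the control. Of 9 neuronal markers, 5 reached a mean of 1 CPM. All 9 together summed to 245 to 270 CPM after ND5 silencing, 262 to 286 CPM in the control and 249 to 307 CPM after the other treatments. Most of this sum came from *NEFL* (mean 198 CPM in ND5 and 203 CPM in the control) and *INA* (51.7 and 60.0 CPM), so it says little about the other markers. Of the 7 neuronal markers tested in the fit, 3 had a positive log2 difference of ND5 from the control. *STMN2*, a marker too low to be tested, had no count in any of the 4 ND5 libraries. Its mean was also near 0 in the control (0.0563 CPM) and after the other treatments (0.0203 CPM), so nothing is read from this absence. The sums for ND5 and control were 30.0 to 38.7 and 28.6 to 34.2 CPM for 6 fibroblast markers (2 reached 1 CPM), 30.1 to 36.7 and 34.0 to 39.9 CPM for 6 glial markers (3 reached 1 CPM), and 0 to 0.584 and 0.0881 to 0.133 CPM for 4 blood markers (0 reached 1 CPM), of which *HBB* had no count in these 8 libraries. In bulk RNA, more cells of a type and more RNA per cell cannot be told apart.

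*MAP2* (ENSG00000078018, chr2:209424058-209734118, plus strand, GRCh38) was the gene most clearly separated in level. Its 4 ND5 libraries held 13.3, 13.5, 12.5 and 13.2 CPM (365, 287, 299 and 325 counts), against 8.74, 8.46, 9.30 and 7.91 CPM (197, 192, 188 and 167 counts) in the control. The 38 libraries of the other treatments ranged from 6.87 CPM over a median of 8.82 to 11.4 CPM, the last in COX1 replicate 3. Every ND5 library thus lay above all 42 others. The fit placed *MAP2* 1.53-fold above the control (log2 difference 0.61, SE 0.10) and 1.49-fold above the other treatments (0.58, SE 0.07). By mean level, ND5 came first with 13.1 ± 0.460 CPM (SD, n = 4), followed by COX1 with 10.3 ± 0.954 (n = 4), ND3 with 9.17 ± 1.56 (n = 4), ATP8 with 9.07 ± 0.427 (n = 4) and ATP6 with 9.01 ± 0.307 (n = 4). The remaining conditions ran from CYTB with 8.83 ± 0.577 (n = 4) over the control with 8.60 ± 0.581 (n = 4) down to ND1 with 8.02 ± 1.74 (n = 4). From ND3 to ND1, neighbouring means lay closer together than their SDs.

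*SNAP25* (ENSG00000132639, chr20:10218830-10307418, plus strand) had the widest fold change and the least separation. Its ND5 libraries held 2.66 and 2.50 CPM in batch 1 and 4.63 and 5.17 CPM in batch 2 (73, 53, 111 and 127 counts). The control held 1.91 and 1.5 CPM in batch 1 and 1.88 and 2.13 CPM in batch 2 (43, 34, 38 and 45 counts). The other treatments ranged from 1.23 over a median of 2.35 to 3.39 CPM (ND1 replicate 3). All ND5 libraries exceeded the control, but 13 libraries of other treatments were at or above the lowest ND5 library. The 2 ND5 libraries of batch 2 stood above all others, and those of batch 1 lay within the range of the other treatments. The fitted difference was 1.98-fold from the control (log2 0.98, SE 0.18) and 1.56-fold from the other treatments (0.64, SE 0.12). ND5 had a mean of 3.74 ± 1.36 CPM (SD, n = 4). It was followed by CYTB with 2.67 ± 0.375 (n = 4), ND3 with 2.65 ± 0.554 (n = 4) and ND1 with 2.52 ± 0.612 (n = 4). The lowest means were those of ATP6 (2.12 ± 0.733, n = 4), COX3 (2.06 ± 0.234, n = 4) and the control (1.85 ± 0.262, n = 4). Neighbouring means below ND5 differed by less than their SDs.

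**Figure D1:**
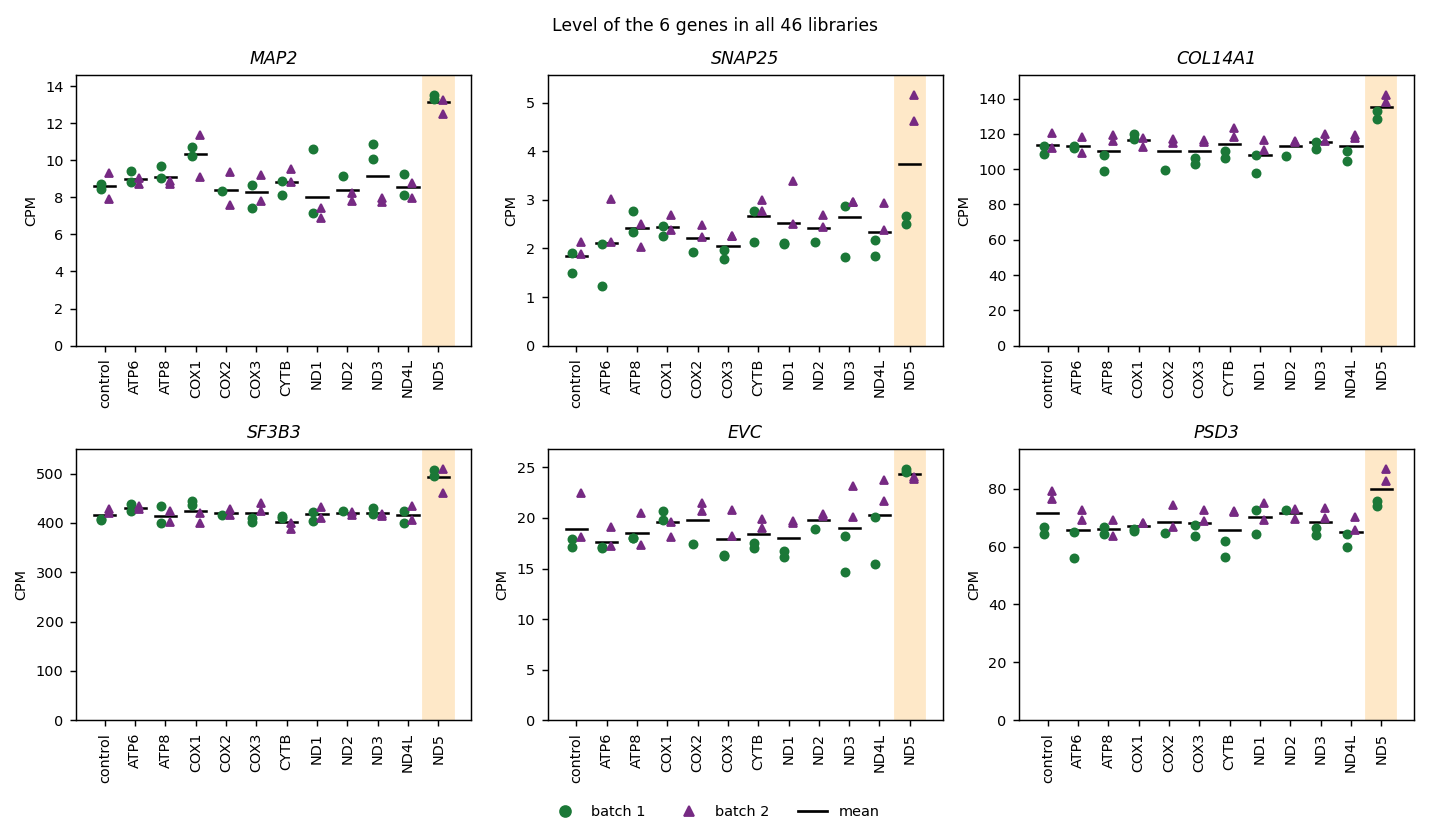
Level in CPM (linear axis from 0) of each gene in all 46 libraries by condition; circles are batch 1, triangles batch 2, black lines the mean, and the shaded column is ND5. The ND5 libraries of *MAP2* lie at 12.5 to 13.5 CPM, above all others, and those of *SNAP25* split by batch into 2.50 to 2.66 and 4.63 to 5.17 CPM.

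*COL14A1* (ENSG00000187955, chr8:120059780-120372036, plus strand) was more abundant and moved less. Its ND5 libraries held 133, 128, 138 and 142 CPM, against 113, 108, 112 and 121 CPM in the control. The other treatments ranged from 97.6 over a median of 115 to 123 CPM, and no library reached the lowest ND5 library. The fitted difference was 1.19-fold from the control (log2 0.25, SE 0.05) and 1.21-fold from the other treatments (0.27, SE 0.03). The next mean below that of ND5 (135 ± 6.0 CPM, n = 4) was COX1 with 117 ± 3.02 CPM (n = 4), and the lowest was ND1 with 108 ± 7.93 CPM (n = 4).

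*SF3B3* (ENSG00000189091, chr16:70523788-70577670, plus strand) was the most abundant of the 6 genes. Its ND5 libraries held 496, 506, 509 and 461 CPM and the control libraries 405, 408, 429 and 420 CPM. The other treatments ranged from 388 over a median of 419 to 443 CPM, so that again all ND5 libraries were above the rest. *SF3B3* was 1.19-fold above the control (log2 0.25, SE 0.04) and 1.18-fold above the other treatments (0.24, SE 0.03). The ND5 mean of 493 ± 21.9 CPM (n = 4) was followed by ATP6 with 431 ± 6.86 CPM (n = 4), and CYTB was lowest with 403 ± 11.8 CPM (n = 4).

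*EVC* (ENSG00000072840, chr4:5711197-5814305, plus strand) had a narrow ND5 group, with 24.8, 24.6, 24.1 and 23.9 CPM. The control held 17.9, 17.1, 22.4 and 18.1 CPM, and the other treatments ranged from 14.7 over a median of 18.9 to 23.8 CPM (ND4L replicate 4). The ND5 libraries were above all others, although the lowest of them exceeded ND4L replicate 4 by a small margin. The fitted difference was 1.29-fold from the control (log2 0.37, SE 0.09) and 1.30-fold from the other treatments (0.38, SE 0.06). ND4L had the next mean after ND5 (24.3 ± 0.429 CPM, n = 4) with 20.3 ± 3.55 CPM (n = 4), and ATP6 the lowest with 17.6 ± 0.989 CPM (n = 4).

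*PSD3* (ENSG00000156011, chr8:18527301-19084730, minus strand) had the smallest difference from the control. Its ND5 libraries held 75.6 and 74.1 CPM in batch 1 and 86.7 and 82.7 CPM in batch 2, against 66.7 and 64.2 CPM, and 79.2 and 76.3 CPM, in the control. Pooled over batches the groups overlapped, and within each batch the ND5 libraries were higher. The other treatments ranged from 56.1 over a median of 67.6 to 75.0 CPM. *PSD3* was 1.12-fold above the control (log2 0.16, SE 0.06) and 1.18-fold above the other treatments (0.24, SE 0.04). The ND5 mean was 79.8 ± 5.92 CPM (n = 4), followed by ND2 with 71.7 ± 1.78 (n = 3) and the control with 71.6 ± 7.27 CPM (n = 4), and ND4L was lowest with 65.1 ± 4.4 CPM (n = 4).

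Per length, on the RPKM scale (CPM divided by the gene's length), the mean over all 46 libraries was 34.2 for *SF3B3*, 13.3 for *COL14A1*, 4.53 for *PSD3*, 2.70 for *EVC*, 0.794 for *MAP2* and 0.733 for *SNAP25*. The neuronal pair was thus the least expressed of the 6 and had the largest log2 differences. Over all genes, 4 ND5 libraries above all 42 others occurred for 6 of 20272 genes (0.0296%), of which *MAP2*, *COL14A1*, *SF3B3* and *EVC* are 4. The others, named after their values were seen, were *C3orf52* and *NAV2*. ND5 libraries above all others of their own batch, in both batches, occurred for 20 genes (0.0987%), among them all of the 6 except *SNAP25*. In batch 1 alone this share was 0.824% and in batch 2 alone 1.07%, and all 4 ND5 libraries lay above the 4 control libraries for 1.77% of genes, among them all of the 6 except *PSD3*. These counts rest on the libraries that chose the genes and are read no further.

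For orientation on where the choice ends, the fit called 15 genes higher in ND5 than in the control (0.074% of genes tested) and 97 higher than in the other treatments (0.478%) at an adjusted p under 0.05, and 9 genes were higher in both (0.0444%). These counts are the background for the choice, and nothing is read from them about the 6 genes. *PSD3* was not among the 15 genes called higher than the control, and it was among the 97 called higher than the other treatments. In the comparison with the control, the last gene inside the threshold was *EVC* and the first outside it *TANC1* (log2 difference 0.21). For the other treatments these were *MT-CYB* (0.17) and *CDK5RAP2* (0.13).

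In the other 10 treatments, the differences of *MAP2*, *COL14A1*, *SF3B3* and *EVC* from the control had both signs, those of *SNAP25* were positive throughout and those of *PSD3* negative throughout. The libraries of these treatments and of the control also entered the choice of the genes, as what ND5 was set against, so these differences are not independent of it. In edgeR's quasi-likelihood test 0 of 60 differences had an adjusted p under 0.05, as with DESeq2. Over all genes and the same treatments only 0.172% of tests passed, with a share of 0.00987% for ATP6 and ND3, 0.0247% for ND2, 0.0543% for COX1, 0.0641% for ATP8, 0.0888% for ND1, 0.148% for ND4L, 0.306% for COX3, 0.469% for COX2 and 0.548% for CYTB. The count of 0 is thus what the background gives and is no result about the 6 genes. At an unadjusted p under 0.05, 10 of the 60 passed (5 for *SNAP25*, 4 for *PSD3* and 1 for *MAP2*), and 9.84% of tests over all genes did. These comparisons share their control libraries with one another and with the comparison of ND5.

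*SNAP25* had positive log2 differences from the control in 10 of 10 treatments, from 0.15 (COX3) to 0.53 (CYTB, SE 0.19), with a median of 0.36. As given above, the control was the lowest of the 12 conditions by mean level. *PSD3* had negative differences in 10 of 10 treatments, from -0.14 (ND4L) to -0.01 (ND2). Its difference in ND5 was the only positive one among the 11 treatments. For *MAP2* the differences lay between -0.11 (ND1) and 0.27 (COX1, SE 0.10), with 5 of 10 positive. For *COL14A1* they lay between -0.07 and 0.04, for *SF3B3* between -0.05 and 0.05 and for *EVC* between -0.10 and 0.10.

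**Figure D2:**
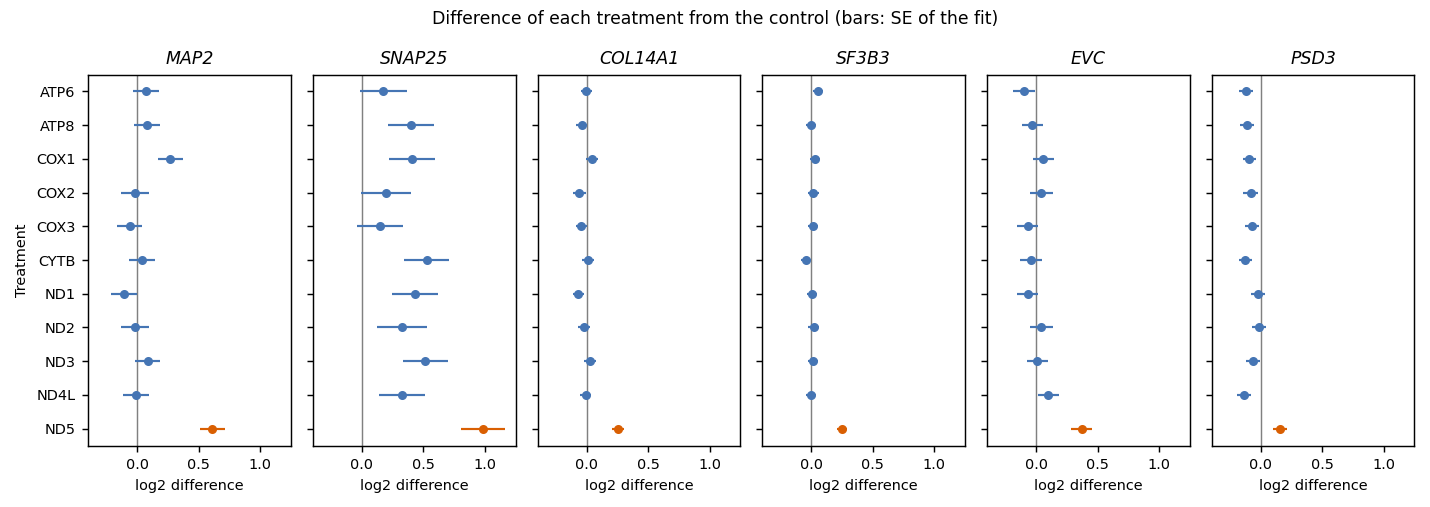
Log2 difference of each of the 11 treatments from the control for each gene, with the SE of the fit as bars; ND5 is orange. The 10 other treatments lie between -0.14 and 0.53 over all 6 genes, and ND5 lies between 0.16 for *PSD3* and 0.98 for *SNAP25*.

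The level of 4 of the 6 genes differed between batches. Over all genes, 57.1% differed between the batches, so this share is near the background. *SNAP25* was higher in batch 2 by 0.34 on the log2 scale (SE 0.08, adjusted p = 1.16e-04, edgeR quasi-likelihood test), *EVC* by 0.17 (adjusted p = 8.23e-05, edgeR), *PSD3* by 0.13 (adjusted p = 2.32e-06, edgeR) and *COL14A1* by 0.11 (adjusted p = 5.83e-06, edgeR). *MAP2* (log2 difference -0.08, adjusted p = 0.100, edgeR) and *SF3B3* (-0.005, adjusted p = 0.826, edgeR) did not pass.

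The difference of ND5 from the control had the same sign in both batches for all 6 genes. Taken as the difference of mean log2 CPM, it was 0.64 in batch 1 and 0.58 in batch 2 for *MAP2*, 0.24 and 0.27 for *COL14A1*, 0.30 and 0.19 for *SF3B3*, 0.49 and 0.25 for *EVC*, and 0.19 and 0.12 for *PSD3*. For *SNAP25* it was 0.59 in batch 1 and 1.26 in batch 2. In batch 1 the other treatments reached 0.57 for *SNAP25* (ATP8), nearly the value of ND5, and in batch 2 they reached 0.54 (ND3). The interaction test of edgeR set the shift of ND5 between batches against the shift shared by all other conditions, not that of the control alone. It gave 0.65 for *SNAP25* (SE 0.23, unadjusted p = 0.00795, adjusted p = 0.525 in this edgeR test) and -0.23 for *EVC* (unadjusted p = 0.0585 in the same edgeR test). The same ND5 libraries chose the genes, so for them this test is not independent of the choice. Over all genes, 0 passed this interaction test at an adjusted p under 0.05 (0%), with edgeR or, among the 6 genes, with DESeq2, and 8.05% passed at an unadjusted p under 0.05. The interaction of *SNAP25* thus did not pass after adjustment. By the batch means alone, the *SNAP25* difference from the control was larger in batch 2, where the control and the ND5 group hold 2 libraries each. Without ND5 replicate 4 the *SNAP25* difference was 0.85 from the control and 0.50 from the other treatments. In the fit of batch 1 alone it was 0.60 and 0.28.

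**Figure D3:**
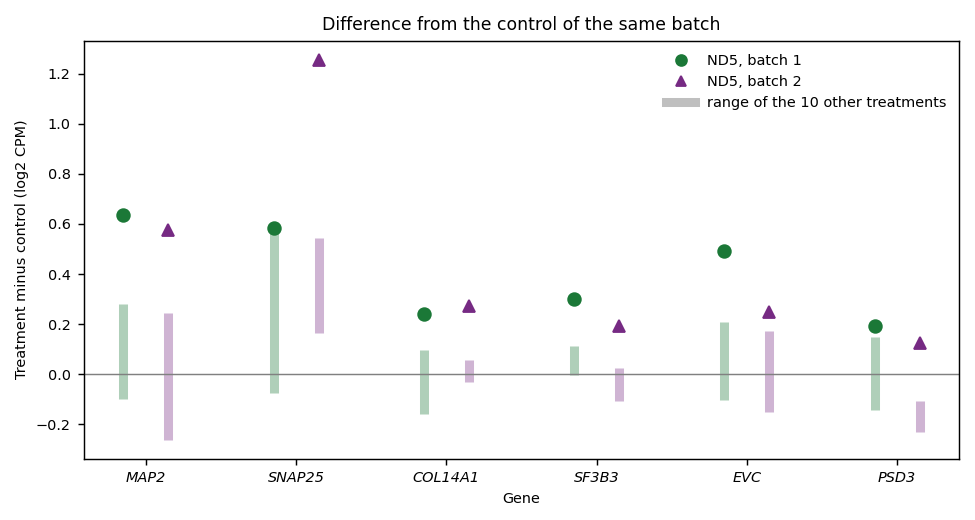
Difference of ND5 from the control of the same batch in mean log2 CPM, as circles for batch 1 and triangles for batch 2, with bars for the range of the 10 other treatments minus the same control. ND5 lies above the bars for every gene; for *SNAP25* it is 0.59 against a highest other value of 0.57 in batch 1 and 1.26 against 0.54 in batch 2.

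Related genes were taken from 7 lists. Of 253 tested genes in them, chosen for the functions of the 6 genes and for REST, 1 was higher and 1 lower after ND5 silencing than in the control (0.791% of the 253), where 0.158% of all genes were called in either direction (0.074% higher and 0.0839% lower). Relative to the other treatments 2 were higher and 1 lower (1.19%), where 0.774% of all genes were called. At an unadjusted p under 0.05, 26 and 43 of the 253 passed (10.3% and 17%), against 9.3% and 12.6% of all genes. The median log2 difference over the 253 genes was 0.001 from the control and -0.004 from the other treatments, and over all genes tested it was 8.26e-04 and 1.55e-04. Both comparisons use the same ND5 libraries.

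Among 40 tested genes of microtubule-associated proteins and the neuronal cytoskeleton, 0 were called against the control, and 1, *INA*, with DESeq2. At an unadjusted p under 0.05 there were 8 (20%, against 9.3% of all genes). Relative to the other treatments, 11 of the 40 had an unadjusted p under 0.05 (27.5%, against 12.6% of all genes). Of these 11, *STMN4*, named after its value was seen, was lower and the rest were higher. Over the 40 genes, 23 were higher and the median log2 difference was 0.016. At an adjusted p under 0.05, 1 was called. *ANK2*, an ankyrin that links membrane proteins to the spectrin skeleton, was higher by 0.17 (SE 0.04, adjusted p = 0.0354, edgeR). Its ND5 level of 63.5 ± 4.60 CPM (SD, n = 4) compares with 55.7 ± 3.64 CPM in the control (n = 4). *INA*, a neuronal intermediate filament gene, had a log2 difference of -0.22 from the control (adjusted p = 0.0881 with edgeR and 0.0227 with DESeq2). The most abundant genes of the list had log2 differences from the control of -0.10 (SE 0.07) for the microtubule destabiliser *STMN1*, 0.10 (SE 0.04) for the ubiquitous *MAP4* and -0.04 (SE 0.05) for the neurofilament gene *NEFL*. *MAPT*, which encodes tau and was named after its value was seen, had -0.13 (SE 0.11). None of these differences passed the test in edgeR.

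Among 54 tested genes of SNARE proteins and regulated exocytosis, 0 were called in either comparison, and 0 with DESeq2. At an unadjusted p under 0.05 there were 5 and 11 (9.26% and 20.4%, against 9.3% and 12.6% of all genes). The 11 had both signs. The vesicle SNARE *VAMP3* had a log2 difference from the control of -0.08 (SE 0.06), the vesicle chaperone *DNAJC5* of 0.04 (SE 0.05), the *SNAP25* paralogue *SNAP47* of -0.05 (SE 0.05) and the endosomal syntaxin *STX7* of -0.01 (SE 0.05). The direct partners of SNAP25 in neurons, named after their values were seen, had -0.09 (SE 0.12) for *STX1A* and 0.01 (SE 0.07) for *VAMP2*. Among 37 tested genes of REST, its corepressors and its known targets, 0 were called in either comparison, and 1, *INA*, with DESeq2. At an unadjusted p under 0.05 there were 2 in each (5.41%). *REST* had -0.02 (SE 0.07), and the corepressor subunits *HDAC2*, *KDM1A* and *HDAC1* had -0.01 (SE 0.05), 0.05 (SE 0.04) and 0.05 (SE 0.04).

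Among 34 tested genes of collagens and matrix partners, 3 had an unadjusted p under 0.05 against the control (8.82%). Against the other treatments there were 5 (14.7%). *TNC* was higher after ND5 silencing than in the control. This gene encodes tenascin-C, a glycoprotein of the matrix, and its level was 114 ± 11.3 CPM (SD, n = 4) against 85.8 ± 8.62 CPM (n = 4), a log2 difference of 0.41 (SE 0.09, adjusted p = 0.0367, edgeR). Against the other treatments it was 0.24 (adjusted p = 0.0680, edgeR). *COL12A1*, a fibril-associated collagen like *COL14A1*, was higher by 0.21 (adjusted p = 0.0481, edgeR) than in the other treatments. Its difference from the control was 0.30, with an adjusted p of 0.0881 in edgeR, and it was called there with DESeq2 (adjusted p = 0.0279), with the replicate block, with no filter and with ND5 and control libraries alone. The collagen hydroxylase gene *PLOD1* had 0.04 (SE 0.05) and the fibronectin gene *FN1* 0.01 (SE 0.05) against the control. The call of *TNC* was lost without any 1 of control replicates 1, 2 and 4 and ND5 replicates 1, 2 and 3, and with no batch term. That of *ANK2* was lost without any 1 of the 4 ND5 replicates, with no batch term and with the length trend removed. The call of *COL12A1* lay close to the threshold and was lost in 20 of 46 fits that left out 1 library, namely those without an ND5 library (4), control replicate 3 (1) or a library of another treatment (15), and also with no batch term, with library sizes from nuclear genes and with the length trend removed.

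Among 27 tested genes of SF3a, SF3b and the U2 snRNP, 0 were called, and 0 with DESeq2. At an unadjusted p under 0.05 there were 4 in each comparison (14.8%, against 9.3% and 12.6% of all genes). *SF3B1*, the largest SF3b subunit, had a log2 difference from the control of -0.05 (SE 0.04), the splice site factor *U2AF2* 0.05 (SE 0.05), *DDB1*, a homologue of SF3B3 that acts in DNA repair, 0.06 (SE 0.04) and the helicase *DDX46* 0.08 (SE 0.06). Of the other SF3b subunits, named after their values were seen, *SF3B2* had 0.05 (SE 0.04), *SF3B4* -0.13 (SE 0.07), *SF3B5* -0.01 (SE 0.06) and *PHF5A* -0.05 (SE 0.08).

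Among 35 tested genes of the EvC complex and Hedgehog signalling, 0 were called, and 0 with DESeq2. At an unadjusted p under 0.05 there were 1 and 5 (2.86% and 14.3%, against 9.3% and 12.6% of all genes). The kinase regulator *PRKAR1A* had -0.08 (SE 0.05), the kinase *CSNK1A1* 0.02 (SE 0.04), the ubiquitin ligase scaffold *CUL3* 0.01 (SE 0.06) and *FBXW11* -0.03 (SE 0.05). *EVC2*, whose protein forms a complex with EVC and which was named after its values were seen, was not tested because it had 22 counts in all 46 libraries together. It had 0 counts in the ND5 and in the control libraries, which allows at most 0.0310 and 0.0350 CPM over each group (3 counts of the group's total, counting error only). Among 34 tested regulators of ARF GTPases, 4 and 5 had an unadjusted p under 0.05 (11.8% and 14.7%), and 1 was called lower. *ASAP1*, an ARF GTPase-activating protein, fell from 83.5 ± 4.90 CPM in the control (SD, n = 4) to 62.9 ± 2.76 CPM (n = 4), a log2 difference of -0.41 (SE 0.06, adjusted p = 1.18e-05, edgeR), and it was also lower than in the other treatments (-0.36, adjusted p = 2.73e-07, edgeR). *ARF6*, the substrate of PSD3, had 0.01 (SE 0.05), *ARF1* -0.08 (SE 0.04) and the ARF exchange factor *GBF1* -0.05 (SE 0.05) against the control.

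**Figure D4:**
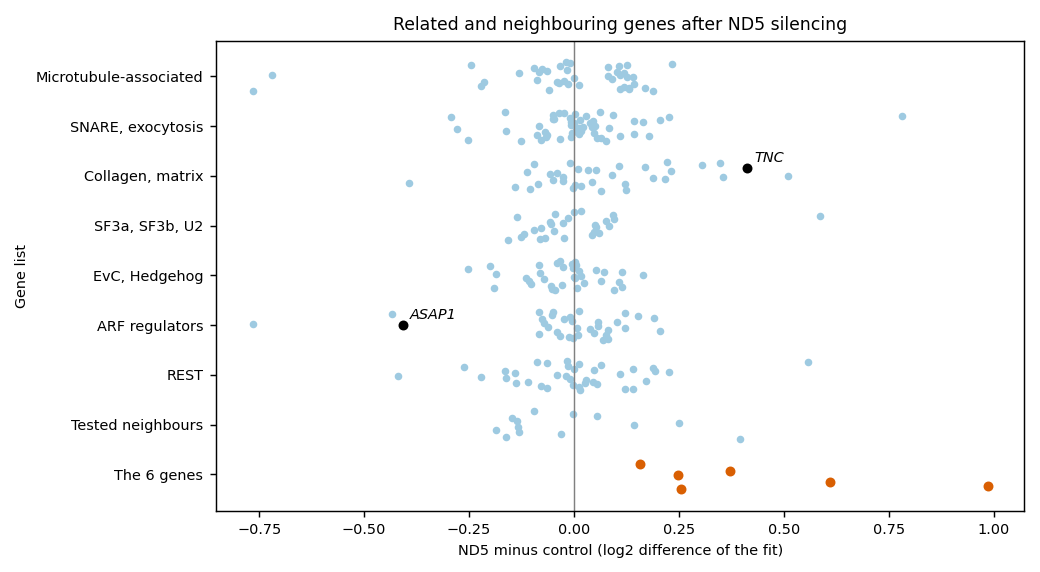
Log2 difference of ND5 from the control for the tested genes of 7 lists, for 13 tested neighbouring genes and for the 6 genes (orange, chosen for this difference); black marks genes called at an adjusted p under 0.05. *TNC* at 0.41 and *ASAP1* at -0.41 are the called genes, and the lists spread around 0.

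The genes next to the 6 on their chromosomes were also compared with the control. Of 24 genes that overlap one of the 6 or are the nearest tested gene on either side, 13 were tested, of which 0 were called against the control with edgeR or DESeq2 (1 at an unadjusted p under 0.05) and 4 had a positive difference. Over all genes, 0.158% were called and 9.3% had an unadjusted p under 0.05 in edgeR. The counts are thus what the background gives and are no result about the neighbours. Next to *SF3B3*, *COG4* begins 223 bases away on the opposite strand and had a log2 difference from the control of -0.003 (SE 0.05), while *MTSS1L* had -0.09 (SE 0.08). *CRMP1*, on the strand opposite to *EVC* and overlapping it, had 0.14 (SE 0.12), and *MSX1* and *C4orf50* had -0.19 (SE 0.09) and -0.13 (SE 0.38). Use of strand in counting is not given in the sources used here, so reads from the overlap of *EVC* and *CRMP1* cannot be told apart. The antisense gene *SNAP25-AS1* overlaps *SNAP25* and held 73 counts over all 46 libraries. *ANKEF1* and *MKKS* beside *SNAP25* had -0.14 (SE 0.07) and -0.16 (SE 0.08). *PIKFYVE* and *UNC80* beside *MAP2* had -0.03 (SE 0.06) and -0.13 (SE 0.33), and *AC091563.1* and *MRPL13* beside *COL14A1* had 0.40 (SE 0.48) and -0.15 (SE 0.09). *NAT1* and *SH2D4A* beside *PSD3* had 0.25 (SE 0.16) and 0.06 (SE 0.10).

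Upstream sequence was given for *MAP2* and *EVC* only, in the RefSeq table for GRCh38.p14, which holds 35116 windows. Shown are 250 bases before a start of each, since the ND5 libraries stood above all others for both genes, with capitals for the E-box CANNTG and the GC box GGGCGG found on either strand.
MAP2, chr2:209579082-209579331, plus strand: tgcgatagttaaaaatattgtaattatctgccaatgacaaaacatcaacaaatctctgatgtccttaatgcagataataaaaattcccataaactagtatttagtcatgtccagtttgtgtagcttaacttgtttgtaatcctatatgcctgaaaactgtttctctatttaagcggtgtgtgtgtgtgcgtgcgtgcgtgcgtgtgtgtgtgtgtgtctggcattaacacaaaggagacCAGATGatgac
EVC, chr4:5710951-5711200, plus strand: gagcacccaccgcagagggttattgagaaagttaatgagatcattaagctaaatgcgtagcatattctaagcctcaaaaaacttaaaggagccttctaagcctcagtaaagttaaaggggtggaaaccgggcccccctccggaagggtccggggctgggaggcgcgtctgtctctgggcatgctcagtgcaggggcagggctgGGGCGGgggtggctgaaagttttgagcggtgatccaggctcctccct
The *MAP2* window, 1 of 3 listed for this gene, had 37.6% G and C and 1 E-box, and the *EVC* window had 55.6% and 1 GC box, against a median of 58% over all windows. An E-box occurred in 61.8% and a GC box in 42.6% of all windows. Neither window held TATAAA (10.7% of windows) or the half-sites TTCAGCACC (0.288%) and GGACAG (17.2%) of the RE1 element bound by REST. The 2 windows had no searched motif in common.

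Across the 46 libraries, with log2 CPM centred by batch, the 6 genes were positively correlated with one another, with Pearson's r from 0.33 (*SNAP25* and *SF3B3*) to 0.72 (*COL14A1* and *SF3B3*). Over the 42 libraries without ND5 the same pairs gave -0.27 to 0.26, and *MAP2* and *SNAP25* went from 0.45 to 0.03. The genes most like *MAP2* among 13061 protein-coding genes with a mean of at least 1 CPM were *PTPN3*, *TMEM260* and *UACA*, with r of 0.66, 0.65 and 0.65, and 0.44, 0.52 and 0.46 without ND5. Those most like *SNAP25* were *IMPACT*, *LRCH1* and *GOLIM4*, with r of 0.58, 0.58 and 0.57, and 0.36, 0.34 and 0.29 without ND5. The 6 genes were chosen for high levels in the same ND5 libraries, so positive correlations over all 46 libraries follow from the choice. The genes most like *MAP2* and *SNAP25* were ranked over the same 46 libraries. These values are descriptions over libraries that share conditions and batches.

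The 6 genes are mostly long. Their annotated exon length was 15213 bases for *PSD3*, 12419 for *SF3B3*, 11559 for *MAP2*, 8647 for *COL14A1*, 7148 for *EVC* and 3357 for *SNAP25*, against a median of 5008 over 14825 tested protein-coding genes. Protein-coding genes called higher in ND5 than in the other treatments had a median of 9980 bases (n = 90), and those called lower 2915 bases (n = 57). In 4 classes of length with equal numbers of genes, from shortest to longest, the median log2 difference from the other treatments was -0.05, -0.02, -0.001 and 0.03. From the control it was -0.002, -0.006, -0.006 and 0.011, so the trend was seen mainly against the other treatments. After removal of the dependence on gene length, the log2 difference from the other treatments was 0.54 for *MAP2*, 0.66 for *SNAP25*, 0.24 for *COL14A1*, 0.19 for *SF3B3*, 0.36 for *EVC* and 0.19 for *PSD3*. Before it, the values were 0.58, 0.64, 0.27, 0.24, 0.38 and 0.24 in the same order. The genes were chosen for this difference in the same libraries, so the kept sign of all 6 is a description. A part played by gene length was not tested.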

How the data were processed

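RNA-seq was performed on 46 libraries of HEK293T cells after poly(A) enrichment. The deposited table holds the authors' unnormalized read counts for 58735 genes and each gene's length in bases. The submitters' processing notes name GRCh38.p12, R 4.3.0, DESeq2 1.40.2 and limma 3.56.2. Aligner, counter and strandedness are not given in the sources used here, and the labels describe single-end reads while the methods describe paired-end reads. Conditions were taken from the labels and batches from the methods.

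Counts were fitted in R 4.3.3 with edgeR 4.0.16 (TMM, quasi-likelihood, terms for condition and batch) in all 46 libraries. Of all genes, 20272 passed filterByExpr (minimum count 10), and Benjamini-Hochberg adjustment ran over these, with a threshold of 0.05. CPM and RPKM were computed here from the deposited counts, and log2 CPM used a prior count of 2. The 66 replicate pairs differed by more than sampling noise. On simulated counts for ND5 against the other treatments (20272 genes), 21 of 67 genes changed 1.2-fold, 51 of 67 changed 1.5-fold and 49 of 66 changed 2-fold were called, with 7 false calls.

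The 6 genes, the lists and the tests were chosen with earlier results of these data known. Named were the 6 genes, *MT-ND5*, list genes called or else most abundant (up to 4 a list), tested neighbours, the 3 genes most like *MAP2* and *SNAP25*, the genes beside the threshold, and those said to be named after their values were seen. DESeq2 1.42.0, other filters, scalings, batch terms and left-out libraries were alternatives. The length trend was an alternative chosen after seeing the data.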

Additional observations from a re-analysis of the deposited data

Results flagged for a closer look

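In groups of 4 libraries, the gap between an extreme library and the nearest other was compared with Dixon's 95% critical value for the 6 genes in 10 conditions. Of 60 groups, 3 exceeded it, and chance gives about 1 in 20. *MAP2* in ND1 replicate 2 was at 10.6 CPM, with the other ND1 libraries at 6.87 to 7.43 CPM. *SNAP25* in ND3 replicate 1 was at 1.82 CPM, with the others at 2.87 to 2.96 CPM. *EVC* in ATP6 replicate 4 was at 19.1 CPM, with the others at 17.0 to 17.2 CPM. None of the 3 lay in the ND5 or control group.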

How the results depend on the processing

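Of the 6 genes, *SNAP25* depended most on the libraries: its log2 difference in batch 1 alone was 0.60 from the control and 0.28 from the other treatments, and in batch 2 alone 1.28 and 0.92. *EVC* differed from the control by 0.24 in batch 2 alone. *MAP2* differed from the control by 0.59 to 0.67 over fits that left out 1 library. Removing the length trend gave 0.54 for *MAP2* and 0.19 for *PSD3* against the other treatments. No alternative turned the sign of any of the 12 differences, for which the genes were chosen in the same libraries. The count of 0 called differences in other treatments and among neighbours, and in the interaction test, was the same under every alternative run. For the interaction, only the 8 ND5 and control libraries were left out in turn, and leaving out the others was not run. Calls between batches ranged from 4 to 5 of 6.

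Of related genes, 2 were called against the control, but 1 with no batch term, 4 with DESeq2, 4 with no filter and 1 to 3 with 1 library left out. Against the other treatments 3 were called, but 1 with no batch term, 5 with the replicate block, 1 with the length trend removed and 1 to 4 with 1 library left out. The replicate numbers paired ND5 and control libraries only weakly (correlation of deviations after the batch term 0.10, 0.08, 0.05 and 0.08), and 12 of 46 libraries correlated best with their own number. The mean correlation was 0.0146 for the same number and -0.0744 for other numbers of the same batch. Some variation shared by number therefore remains possible, and the main fit did not include it. Over all genes, 15 were higher and 17 lower than the control, but 4 and 7 with no batch term, 29 and 24 with the replicate block, 52 and 50 with DESeq2, 82 and 36 with no filter, 23 and 25 at a minimum count of 50, and 44 and 30 from ND5 and control libraries alone. Against the other treatments, 97 were higher and 60 lower, but 25 and 12, 162 and 104, 172 and 146, and 150 and 124 in the first 4 of these. With the length trend removed they were 60 and 41, and in batch 1 and batch 2 alone 15 and 19, and 13 and 12 (4 and 9, and 2 and 4, against the control). With 1 library left out, 6 (without ND5 replicate 2, and 7 without control replicate 4) to 22 genes were higher and 11 (without control replicate 4) to 24 lower than the control, and 9 and 12 without control replicate 3. Against the other treatments they were 29 and 14 without ND5 replicate 4, 45 and 29 without replicate 1, 47 and 36 without replicate 2 and 56 and 37 without replicate 3, with 39 lower without ND1 replicate 3 and 92 lower without COX2 replicate 4. The causes were not tested. At 34 to 127 counts per library for *SNAP25* in ND5 and control, counting error limits its folds.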
